A study of Rattus norvegicus with 12 samples.

Results

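The genes described here encode the proteins of the synaptic vesicle and of the machinery that releases its contents, measured in the rat striatum on 12 Agilent single-colour arrays. The list held 38 genes, chosen by name, and their probes were found by matching each probe's accession to a gene symbol. A probe was found for 37 of the 38 genes (46 of 30367 probes), and Syp, the vesicle protein synaptophysin, is not analysed here. Of the 37, 36 genes (45 probes) were bright enough to be tested, and Slc17a7 was not, among 19412 features tested in all, 11110 of them with a symbol. Svop and Tspoap1 entered the list because of their values in the comparisons of L-DOPA and of zonisamide on these same arrays, so their values there are a description without a test. The other genes were listed for their function.

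All RNA came from male Wistar rats, whose age is not given, and every rat, the controls included, had been injected with the toxin 6-hydroxydopamine into the medial forebrain bundle of the left side, the tract of dopamine fibres to the striatum. Only rats with 7 or more turns per minute under 3 mg/kg of methamphetamine were used. Each of 4 groups had 3 arrays: the non-lesioned side after saline, the lesioned side after saline, the lesioned side after L-DOPA (100 mg/kg, preceded by benserazide, which blocks its conversion outside the brain), and the lesioned side after the same L-DOPA with zonisamide (50 mg/kg, 30 min later). Treatment was daily for 7 days. L-DOPA is turned into dopamine in the brain, and zonisamide, an antiepileptic, is also given in Parkinson's disease. The design text assigns 3 animals to each group, but the labels do not say that each numbered array is a separate animal, nor whether the saline arrays of both sides came from the same rats. The p-values therefore measure the spread between these arrays, and the non-lesioned side is the other hemisphere of a lesioned brain, not an intact one.

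Release begins when a transporter fills the vesicle with transmitter and synapsins hold it in a reserve near the membrane. Active zone scaffolds (RIM, RIM-binding protein, Munc13, bassoon, piccolo, ELKS) and the small GTPase Rab3 dock and prime it beside calcium channels. When calcium enters, a synaptotagmin triggers the SNARE proteins, held ready by complexin, to fuse both membranes, after which the SNAREs are taken apart by NSF and the membrane is recovered with dynamin. Messenger RNA of these proteins is made in the cell body. The striatum holds the bodies of spiny projection neurons and interneurons, all of them GABAergic or cholinergic, whereas its glutamate terminals come from cortex and thalamus and its dopamine terminals from the midbrain, so the mRNA of those terminals is mostly made elsewhere.

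Values are log2 processed signals relative to the 75th percentile of their array, so that 0 is the signal of that percentile. This percentile lay between 793 and 1737 intensity units, and 67.7% to 74.0% of the probes on an array were marked as well above background. Of 12 spiny neuron markers 10 had a probe, all above background on all 12 arrays, with mean levels of 3.49 to 4.10. The spread of replicate spots exceeded 20% on 5 arrays (the 3 non-lesioned arrays, and replicate 3 of both drug groups). The extraction software's own quality summary read "evaluate" on every array except replicate 3 of lesioned saline, which read "in range". Choroid plexus markers, 8 of 9 with a probe, differed within groups: their mean level was 1.59 on the third non-lesioned array, 0.86 and -0.83 on replicates 2 and 3 of L-DOPA, and -0.36 on replicate 3 of L-DOPA with zonisamide, against -5.35 to -3.14 on the other arrays. With 3 arrays in a group, their number limits the precision throughout. A single gene's exact permutation test of 3 against 3 cannot go below p = 0.1, so tests come from one limma fit over all features (Benjamini-Hochberg, threshold 0.05).

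Svop, an SV2-related protein of the vesicle membrane shaped like a transporter, was lower on every L-DOPA array than on any other array (probe A_44_P517858). The levels were 0.51, 0.22 and 0.35 on the non-lesioned side, 0.25, 0.16 and -0.39 on the lesioned side after saline, -0.94, -1.30 and -1.06 after L-DOPA, and 0.42, 0.41 and 0.42 after L-DOPA with zonisamide. The L-DOPA arrays lay below both saline groups without overlap, and the arrays with zonisamide lay inside the range of the non-lesioned side. Against lesioned saline the log2 change was -1.11 ± 0.19 (SE) with L-DOPA, a signal 2.15-fold lower, and 0.41 ± 0.19 with both drugs. Zonisamide with L-DOPA against L-DOPA gave 1.52 ± 0.19, a signal 2.87-fold higher. The comparisons share arrays: the L-DOPA group is in both of the larger changes, with opposite sign. The lesion itself gave -0.35 ± 0.19 (adjusted p = 0.631, limma), with overlapping groups.

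The differences of Svop were present within slides. On the 2 slides with both groups, L-DOPA against lesioned saline gave -1.19 and -1.46. On the 3 slides with both drug groups, zonisamide gave 1.37, 1.72 and 1.48. Leaving out each array in turn left ranges of -1.30 to -0.99 for L-DOPA and 1.42 to 1.60 for zonisamide. Svop was chosen for these values, and the groups compared did not overlap. Its sign could therefore not turn within slides or with an array left out. Marker levels of other cells also differed between these groups. The mean of the spiny neuron markers was 3.80 to 3.83 after saline on the lesioned side, 3.49 to 3.73 after L-DOPA and 3.52 to 3.92 after both drugs, and that of the 8 interneuron markers, all with a probe and all above background, was -0.31 to -0.13, -0.67 to -0.59 and -0.70 to -0.31. The 6 vascular markers had mean levels of -1.95 to -1.57 after L-DOPA and -2.63 to -2.23 after both drugs. The 5 microglial ones had 0.16 to 0.58 and -0.22 to -0.21, with Itgam, singled out after its values were seen, the most different (-2.10 ± 0.68 with zonisamide, adjusted p = 0.236, limma). Of the other 4, Aif1, Cx3cr1 and Csf1r gave -0.49 to -0.29 and P2ry12 0.14. The part of these markers in the result was not tested. With Ttr, the most abundant choroid plexus transcript, as a covariate, Svop gave -0.96 with L-DOPA and 1.46 with zonisamide. In a bulk sample, fewer cells of a type and less RNA per cell cannot be told apart.

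Tspoap1, which encodes RIM-binding protein 1, a scaffold that ties calcium channels to the vesicle's docking site, had a similar order of groups with 1 difference. It stood at 2.63, 2.53 and 2.30 on the non-lesioned side (probe A_64_P080612), 3.06, 3.13 and 3.30 on the lesioned side after saline, 2.25, 2.01 and 1.42 after L-DOPA, and 3.23, 2.99 and 3.43 after both drugs. All L-DOPA arrays lay below the 9 others, and the non-lesioned arrays lay below those of lesioned saline, a step that Svop did not have. The lesion comparison gave 0.68 ± 0.22 (SE; adjusted p = 0.503, limma), which did not pass. L-DOPA against lesioned saline gave -1.27 ± 0.22, a signal 2.41-fold lower, and zonisamide against L-DOPA gave 1.32 ± 0.22, a signal 2.50-fold higher. Both drugs against lesioned saline gave 0.05 ± 0.22, with overlapping groups.

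Within slides Tspoap1 differed by -0.82 and -1.12 with L-DOPA and by 0.98, 0.98 and 2.01 with zonisamide. As for Svop, groups without overlap left no other sign possible there. The 2.01 came from the slide with replicate 3 of both drug groups, arrays with a replicate-spot spread over 20%, and without the arrays of high spread the zonisamide difference was 0.98. After normexp background correction the L-DOPA difference was -2.08. Rimbp2, another RIM-binding protein, chosen here after its values were seen, did not pass and had the opposite sign, 0.48 ± 0.22 with L-DOPA (adjusted p = 0.45, limma) and -0.23 ± 0.22 with zonisamide (adjusted p = 0.74).

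**Figure D1:**
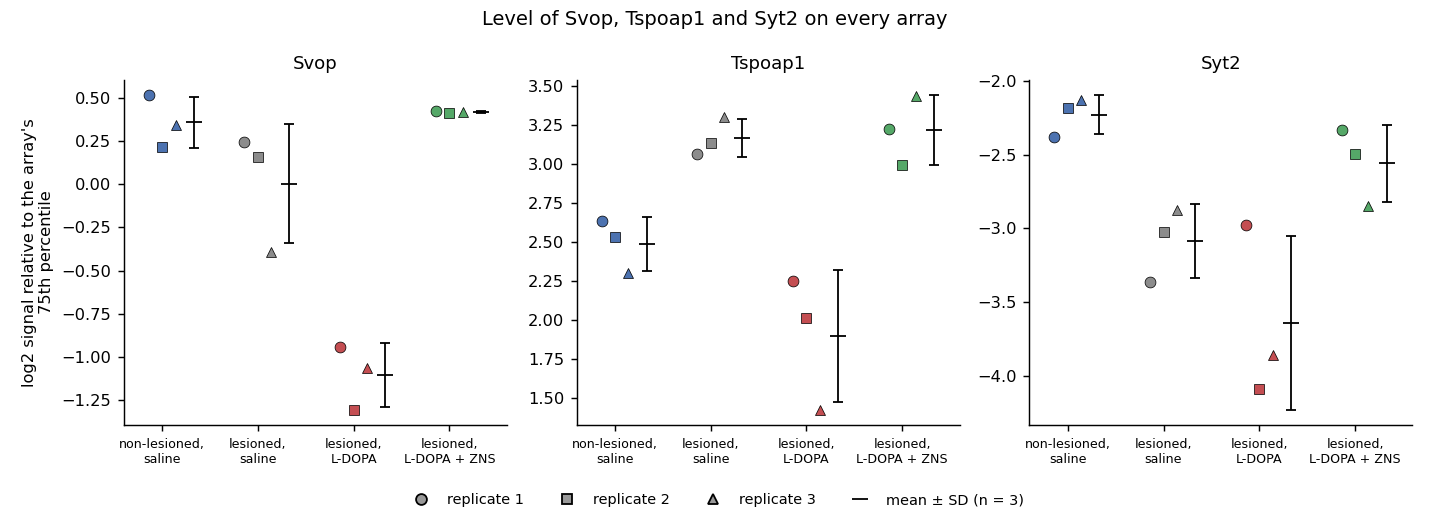
Level of Svop, Tspoap1 and Syt2 on each of the 12 arrays (y axis: log2 signal relative to the array's 75th percentile, own scale per panel), by group and replicate, with the mean ± SD of 3 arrays. The 3 L-DOPA arrays are the lowest of all for Svop (-1.30 to -0.94) and Tspoap1 (1.42 to 2.25), while for Syt2 replicate 1 of L-DOPA (-2.98) lies among the lesioned saline arrays (-3.36 to -2.88).

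For a view of the DNA ahead of Svop and of Syt2, the calcium sensor with the largest zonisamide difference, the 250 bases before the start of each gene are given from the RefSeq table of promoter windows (build GRCr8, plus strand in both, 5′ to 3′). Capitals mark matches to a GC box (GGGCGG, on either strand). Svop lies at chr12:48191299-48191548 and Syt2 at chr13:48736872-48737121.
Svop: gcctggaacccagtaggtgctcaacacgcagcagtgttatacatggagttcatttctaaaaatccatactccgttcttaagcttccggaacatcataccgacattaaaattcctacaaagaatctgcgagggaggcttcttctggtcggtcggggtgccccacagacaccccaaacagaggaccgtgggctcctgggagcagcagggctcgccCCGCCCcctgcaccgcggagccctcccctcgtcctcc
Syt2: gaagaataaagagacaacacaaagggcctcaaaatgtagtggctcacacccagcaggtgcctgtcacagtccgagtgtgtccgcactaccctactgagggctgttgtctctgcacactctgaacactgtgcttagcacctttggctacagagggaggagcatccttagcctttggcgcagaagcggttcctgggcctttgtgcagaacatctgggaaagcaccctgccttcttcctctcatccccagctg

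Such windows were held for 29 of the 38 genes, 30 windows in all because Unc13b had 2. The GC box was in 21 of the 30 windows, against 30.5% of all 33469 windows, and in Svop but not in Syt2. The cyclic AMP response element TGACGTCA was in the windows of Syn1 and Vamp1 (1.59% of all windows), its shorter core TGACG, which the full element contains, in 9 (18.2%), and the AP-1 string TGANTCA in Erc2 (6.34%), each searched on both strands. Neither Svop nor Syt2 had any of these last 3. A match is a description of letters, not of binding.

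None of the genes listed for their function passed in any comparison. On the lesioned side after saline against the non-lesioned side, which asks what loss of dopamine fibres did, 0 of 36 tested genes passed by limma, Svop and Tspoap1 included. Of all features 0% passed. An unadjusted p under 0.05 was found for 4 of the 36, against 8.48% of all features. Groups did not overlap for 4 genes (11.1%), against 17% of all features. Tspoap1 and the calcium sensor Doc2b were higher (2 of 36, against 8.66% of all features), and Syt2 and the vesicle protein synaptogyrin 1 (Syngr1) were lower (2 of 36, against 8.34%). The median log2 change of the 36 was 0.0087, against 0.045 over all features, and ranged from -0.86 to 0.81.

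With L-DOPA against lesioned saline, which asks what dopamine replacement did, 0 of the 34 other genes passed by limma, while 0.433% of all features did. An unadjusted p under 0.05 was found for 3 of 34 (11.3% of all features), and the smallest adjusted p was 0.256. The groups of 8 genes did not overlap, 23.5% against 22.4% of all features. Of these 6 were higher with L-DOPA (Synpr, Rph3a, Erc2, Syt4, Rims1 and Rims2), against 11.7% of all features, and 2 were lower (Syn3 and Cplx1), against 10.8%. The median change of the 34 was 0.051, against -0.027 over all features.

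When zonisamide was added to L-DOPA, 0 of the 34 genes passed by limma, against 0.479% of all features. An unadjusted p under 0.05 was found for 2 (12.4% of all features), and the smallest adjusted p was 0.129, for Syt2. Groups did not overlap for 7 genes, 20.6% against 17.3% of all features: Syt2 and the SNARE genes Snap25 and Vamp2 were higher, against 6.82% of all features, and Unc13b, Syn2, Rph3a and Rims1 were lower, against 10.5%. The median change was 0.044, against -0.034 over all features. With both drugs against lesioned saline, 0 of 34 passed by limma and 0% of all features did, with 2 of 34 at an unadjusted p under 0.05 (7.34% of all features) and a smallest adjusted p of 0.656. Groups did not overlap for 7 (20.6%, against 18.1%): Syt2, Syngr1, Syt1, Vamp2 and Rims1 were higher, against 6.57% of all features, and Syn3 and Unc13b were lower, against 11.6%.

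The width of the intervals limits what these counts show. The 95% interval of the change lay within 1 log2 unit of 0, a change of 2-fold, for 25 of 36 genes with the lesion, and among the 34 others for 20 with L-DOPA, 16 with zonisamide and 23 with both drugs. The same held for 60.5%, 58.0%, 57.0% and 60.9% of all features. Standard errors ran from 0.17 to 2.07 with a median of 0.27. These intervals are unadjusted, whereas a call was adjusted over all features, so passing took a larger change than an interval that excludes 0. The interval of Syt2 with zonisamide was 0.47 to 1.70, and it did not pass (adjusted p = 0.129, limma). That of Synpr with L-DOPA was 0.23 to 1.31, and it did not pass either (adjusted p = 0.256, limma). With 3 arrays a group, a gene that did not pass may therefore still have changed.

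**Figure D2:**
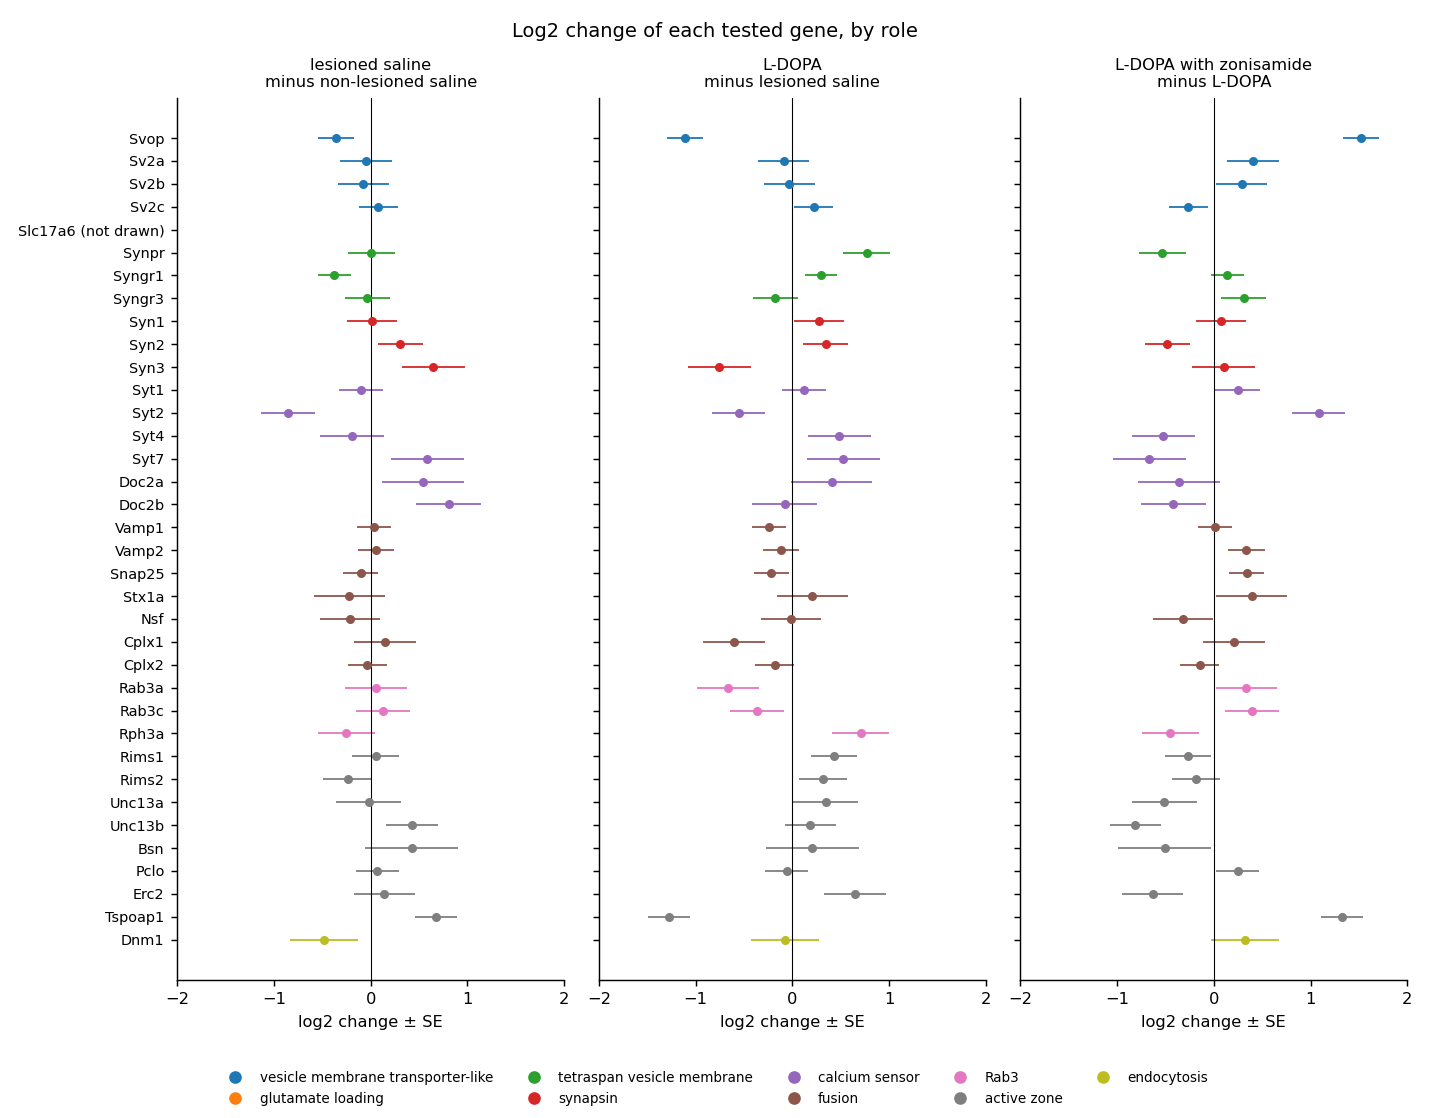
Log2 change ± SE (x axis) of each tested gene, grouped and coloured by role, for the lesion, L-DOPA and zonisamide comparisons; Slc17a6 is left out for its SE of 2.07. Svop (-1.11, then 1.52) and Tspoap1 (-1.27, then 1.32), which were chosen for these values, lie farthest from 0 in the L-DOPA and zonisamide panels. Syt2 (-0.86) lies lowest in the lesion panel.

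None of the SV2 genes, relatives of Svop on the vesicle membrane, passed in any comparison. SV2A, the binding site of the antiepileptic levetiracetam and a regulator of release, is encoded by Sv2a, whose levels were 1.36, 1.497 and 1.38 after saline on the lesioned side, 1.43, 0.75 and 1.78 after L-DOPA and 2.11, 1.43 and 1.63 after both drugs. These groups overlapped, and the changes were -0.09 ± 0.27 with L-DOPA (SE; adjusted p = 0.944, limma) and 0.40 ± 0.27 with zonisamide (adjusted p = 0.603). Sv2b gave -0.03 ± 0.26 and 0.29 ± 0.26, and Sv2c, the form enriched in the basal ganglia, 0.22 ± 0.20 and -0.27 ± 0.20. The intervals of the L-DOPA change, -0.68 to 0.50 for Sv2a, -0.61 to 0.55 for Sv2b and -0.22 to 0.67 for Sv2c, all spanned 0; the difference between these genes and Svop was not tested.

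Among the tetraspan proteins of the vesicle, synaptoporin (Synpr) had the smallest p of the 34 genes with L-DOPA. Its brightest probe read 1.41, 1.40 and 0.69 after saline on the lesioned side and 2.01, 1.62 and 2.19 after L-DOPA, all 3 above the saline arrays, and 1.71, 1.07 and 1.43 after both drugs. The L-DOPA change was 0.77 ± 0.24 (adjusted p = 0.256, limma), and 0.60 and 0.22 within slides. Its other tested probe gave -0.02 ± 0.41, so the probes disagreed. Syngr1 read -2.13, -2.51 and -2.30 on the non-lesioned side, -2.54, -2.68 and -2.85 on the lesioned side after saline, -2.34, -2.56 and -2.29 after L-DOPA and -2.06, -2.50 and -2.21 after both drugs. The lesioned saline arrays were the lowest without overlap against the non-lesioned side (-0.38 ± 0.17, adjusted p = 0.588) and against both drugs (0.44 ± 0.17, adjusted p = 0.656). Syngr3, a partner of the dopamine transporter, stayed between 3.22 and 4.16 on all arrays, with changes of -0.03, -0.18, 0.31 and 0.13 in the 4 comparisons.

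The synapsins, which tether vesicles in the reserve pool, differed in sign with L-DOPA, and none passed. Syn3 read -5.20, -5.64 and -5.07 after saline on the lesioned side, -5.75, -5.86 and -6.56 after L-DOPA and -6.45, -5.73 and -5.68 after both drugs. Both drug groups lay below lesioned saline without overlap (-0.75 ± 0.33, adjusted p = 0.424, and -0.65 ± 0.33, adjusted p = 0.680, limma). Syn3 was dim, and over the alternative ways of processing these changes shrank to as little as -0.13 and -0.064. Syn2 read 1.08, 1.20 and 1.03 after L-DOPA and 1.00, 0.72 and 0.15 after both drugs, lower without overlap though replicate 1 of both drugs (1.00) was close to the lowest L-DOPA array (1.03). The change was -0.48 ± 0.23 (adjusted p = 0.446, limma). Syn1 gave 0.28 ± 0.26 with L-DOPA and 0.08 ± 0.26 with zonisamide.

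Synaptotagmin 2 (Syt2), the fast calcium sensor of rapidly firing and inhibitory synapses, came nearest to the threshold. Its probe A_44_P210492 read -2.38, -2.19 and -2.13 on the non-lesioned side, -3.36, -3.02 and -2.88 on the lesioned side after saline, -2.98, -4.09 and -3.86 after L-DOPA, and -2.34, -2.49 and -2.85 after both drugs. The non-lesioned arrays were all above those of lesioned saline, replicates 2 and 3 of L-DOPA were the lowest of all, and the arrays of both drugs were above those of L-DOPA and of lesioned saline. The changes were -0.86 ± 0.28 for the lesion (adjusted p = 0.503, limma), -0.55 ± 0.28 for L-DOPA (adjusted p = 0.493), 1.08 ± 0.28 for zonisamide (adjusted p = 0.129) and 0.53 ± 0.28 for both drugs (adjusted p = 0.685). Without replicate 1 of L-DOPA the zonisamide change was 1.41 ± 0.21 and passed (adjusted p = 0.0225), so this call depends on that array. In that setting 253 of all 19412 features passed for zonisamide, against 93 with all arrays, so the gain was not particular to Syt2. Over all alternatives its adjusted p ran from 0.0225 to 0.392. Within slides zonisamide gave 0.64, 1.60 and 1.01, while L-DOPA gave 0.39 on the first slide and -1.07 on the second, and the lesion gave -0.98 on the only slide that held both sides.

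Interneuron markers, among whose cells fast-spiking neurons are known to carry Syt2, had mean levels of -0.75 to -0.27 on the non-lesioned side and -0.31 to -0.13 on the lesioned side after saline, ranges that overlap; the drug groups are given above. Pvalb, the marker of the fast-spiking cells among them, likewise singled out, gave -0.35 ± 0.40 for the lesion (adjusted p = 0.822, limma), -0.23 ± 0.40 for L-DOPA (adjusted p = 0.894) and 0.40 ± 0.40 for zonisamide (adjusted p = 0.757), the same signs as Syt2, with overlapping groups. Pvalb read 2.44 on replicate 1 of both drugs and 1.16 and 1.12 on replicates 2 and 3. Of the other interneuron markers, Npy gave -0.29 for the lesion. Sst, Chat, Slc5a7, Lhx6, Nos1 and Th went the other way, with 0.08 to 1.37. With L-DOPA Npy gave 0.05, and the rest of these gave -1.67 to -0.10. The part of interneurons, fast-spiking ones included, in the Syt2 values was not tested.

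Syt1, the main sensor of forebrain synapses, read -0.63, -0.59 and -1.01 after saline on the lesioned side and -0.04, -0.54 and -0.58 after both drugs (0.36 ± 0.23, adjusted p = 0.719, limma), with differences of -0.10, 0.12 and 0.24 in the other comparisons. Syt4, which lacks a working calcium site in one domain, and Syt7, the slow sensor of asynchronous release, gave 0.49 ± 0.33 and 0.53 ± 0.38 with L-DOPA, and -0.52 ± 0.33 and -0.67 ± 0.38 with zonisamide. The Doc2 proteins are high-affinity sensors of spontaneous release. Doc2b read -3.79, -4.20 and -4.58 on the non-lesioned side and -3.20, -3.49 and -3.46 on the lesioned side after saline, higher without overlap (0.81 ± 0.34, adjusted p = 0.577), and Doc2a gave 0.54 ± 0.42 with overlap.

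The fusion genes encode the vesicle SNAREs (Vamp1, Vamp2), the SNAREs of the target membrane (Snap25, Stx1a), the complexins and Nsf. With L-DOPA 6 of the 7 had a change below 0, with a median of -0.18, and with zonisamide 5 of 7 were above 0, with a median of 0.21; the counts were 5 and 5 of 7 under quantile normalization and 5 and 4 after normexp. Of all features 53.3% were below 0 with L-DOPA and 46.2% above 0 with zonisamide. Within slides 5 and 6 of the 7 were below 0 with L-DOPA, while with zonisamide 5, 7 and 3 were above 0, so the third slide (median -0.041) did not have the sign of the others. None passed. Snap25 read 3.40, 3.38 and 3.67 after L-DOPA and 4.04, 3.76 and 3.67 after both drugs, with replicate 3 of both groups nearly equal (0.34 ± 0.18, adjusted p = 0.498, limma). Its other probe gave 0.38 ± 0.22. Complexin 1 (Cplx1), the clamp of the SNARE complex, read 5.09, 4.998 and 5.21 after saline on the lesioned side and 3.99, 4.81 and 4.69 after L-DOPA, lower without overlap (-0.60 ± 0.32, adjusted p = 0.521) and led by replicate 1. Within slides this difference was -1.10 and -0.19. The other probe of Cplx1 gave -0.48 ± 0.32 with L-DOPA, also lower without overlap. With zonisamide that probe gave 0.72 ± 0.32, higher without overlap, against 0.21 ± 0.32 with overlap for the brighter probe. Stx1a, Vamp1, Vamp2, Cplx2 and Nsf had changes of -0.24 to 0.21 with L-DOPA and of -0.32 to 0.39 with zonisamide.

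The active zone scaffolds, Tspoap1 aside, mostly had the opposite signs to the fusion genes. With L-DOPA 6 of the 7 remaining active zone genes were above 0, with a median of 0.32, and with zonisamide 6 of 7 were below, with a median of -0.51. Under quantile normalization the counts were again 6 and 6, and after normexp 7 and 6. Of all features 46.7% were above 0 with L-DOPA and 53.8% below 0 with zonisamide. Within slides 7 and 6 of the 7 were above 0 with L-DOPA, and 6, 6 and 5 below 0 with zonisamide. None passed, the comparisons share the L-DOPA arrays with opposite sign, and Tspoap1 had the opposite signs. The genes of a role were read on the same arrays and are not replicates, and the counts within slides and after rescaling reuse those arrays. The difference in sign between active zone and fusion genes was not tested. Erc2, the ELKS scaffold, read 0.67, 0.64 and 0.80 after saline on the lesioned side, 0.85, 1.48 and 1.73 after L-DOPA and 0.32, 0.46 and 1.37 after both drugs. The L-DOPA arrays were above those of saline, though replicate 1 only just (0.65 ± 0.32, adjusted p = 0.487, limma). The other probe of Erc2 gave 0.19 ± 0.23 with L-DOPA, with overlapping groups, and -0.19 ± 0.23 with zonisamide. Unc13b, the priming factor Munc13-2, read -5.52, -5.32 and -5.25 after saline, -5.09, -4.70 and -5.74 after L-DOPA and -6.19, -5.78 and -6.00 after both drugs. Its zonisamide change of -0.81 ± 0.26 (adjusted p = 0.237) was -1.10, -1.07 and -0.26 within slides, and both drugs against saline gave -0.62 ± 0.26 (adjusted p = 0.669). Unc13b was dim, and over the alternatives these changes shrank to as little as -0.22 and -0.12.

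Rims1, the organiser of docking, had close replicates on the lesioned side: -2.87, -3.04 and -2.83 after saline on the lesioned side, -2.39, -2.53 and -2.51 after L-DOPA, and -2.74, -2.75 and -2.75 after both drugs. The saline arrays were the lowest, those of both drugs lay between and those of L-DOPA were the highest, without overlap, yet the changes of 0.43 ± 0.24 with L-DOPA (adjusted p = 0.540, limma) and -0.27 ± 0.24 with zonisamide (adjusted p = 0.715) did not pass. The fit shares 1 spread over the 4 groups, and the non-lesioned arrays read -2.76, -2.52 and -3.61. Rims2, Unc13a and Bsn gave 0.20 to 0.34 with L-DOPA and -0.51 to -0.18 with zonisamide, and Pclo -0.06 and 0.25. The other probes of Rims2 and Pclo had the opposite sign in both comparisons. Rabphilin (Rph3a), which binds Rab3 on the vesicle, read -0.84, -1.51 and -1.14 after saline, -0.63, -0.49 and -0.24 after L-DOPA and -0.84, -1.20 and -0.67 after both drugs, so that the L-DOPA arrays were the highest of these without overlap (0.71 ± 0.29, adjusted p = 0.398, and with zonisamide -0.45 ± 0.29, adjusted p = 0.596). Rab3a itself gave -0.67 ± 0.32 with L-DOPA and 0.34 ± 0.32 with zonisamide, and Rab3c -0.37 ± 0.28 and 0.40 ± 0.28. Dnm1, the dynamin that cuts vesicles from the membrane, gave -0.49 ± 0.35 with the lesion and 0.32 ± 0.35 with zonisamide, with overlap in all comparisons.

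For the vesicular glutamate transporters, single arrays set the values. VGLUT2 (Slc17a6), typical of thalamic neurons, read 2.52 on replicate 1 of L-DOPA with zonisamide and -5.84 and -5.75 on the other arrays of that group. On the other 9 arrays it lay between -5.60 and -0.91, the highest being replicate 2 of the non-lesioned side. Its changes were -0.72, -0.03, 0.95 and 0.92 in the 4 comparisons, each with an SE of 2.07, and none passed (adjusted p of 0.908 to 0.997, limma). Its SD within groups was 2.85, against a median of 0.34 over all features. Thalamic markers had a probe for 2 of 4 genes (Lef1 and Prkcd), both above background throughout. Their mean was 1.43 on the same replicate 1, against -1.77 and -1.46 on the other arrays of that group and -1.80 to -0.04 elsewhere. The next highest means, both -0.04, were on replicates 2 and 3 of L-DOPA, where Slc17a6 was low (-4.81 and -4.69) and Prkcd read 1.97 and 2.09. After them came replicate 2 of the non-lesioned side, with a mean of -0.20 (Lef1 -1.91, Prkcd 1.51). Slc17a6 and the mean of these markers thus did not keep 1 order over the arrays. For Lef1 alone the 2 highest arrays (-0.59 and -1.91) were the same as for Slc17a6.

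VGLUT1 (Slc17a7), typical of cortical neurons, was above background on 3 arrays: replicate 1 of L-DOPA (-4.60), replicate 1 of L-DOPA with zonisamide (-5.10) and replicate 2 of lesioned saline (-6.08). The other 9 read -8.79 to -7.05. Cortical markers had a probe for 4 of 9 genes (Neurod6, Neurod2, Fezf2 and Slc30a3), 3 of them above background on all arrays. Their means were highest on the same 3 arrays, -2.01, -2.66 and -3.17, against -5.21 to -4.01 on the others. The part of cells from neighbouring regions in these values was not tested.

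**Figure D3:**
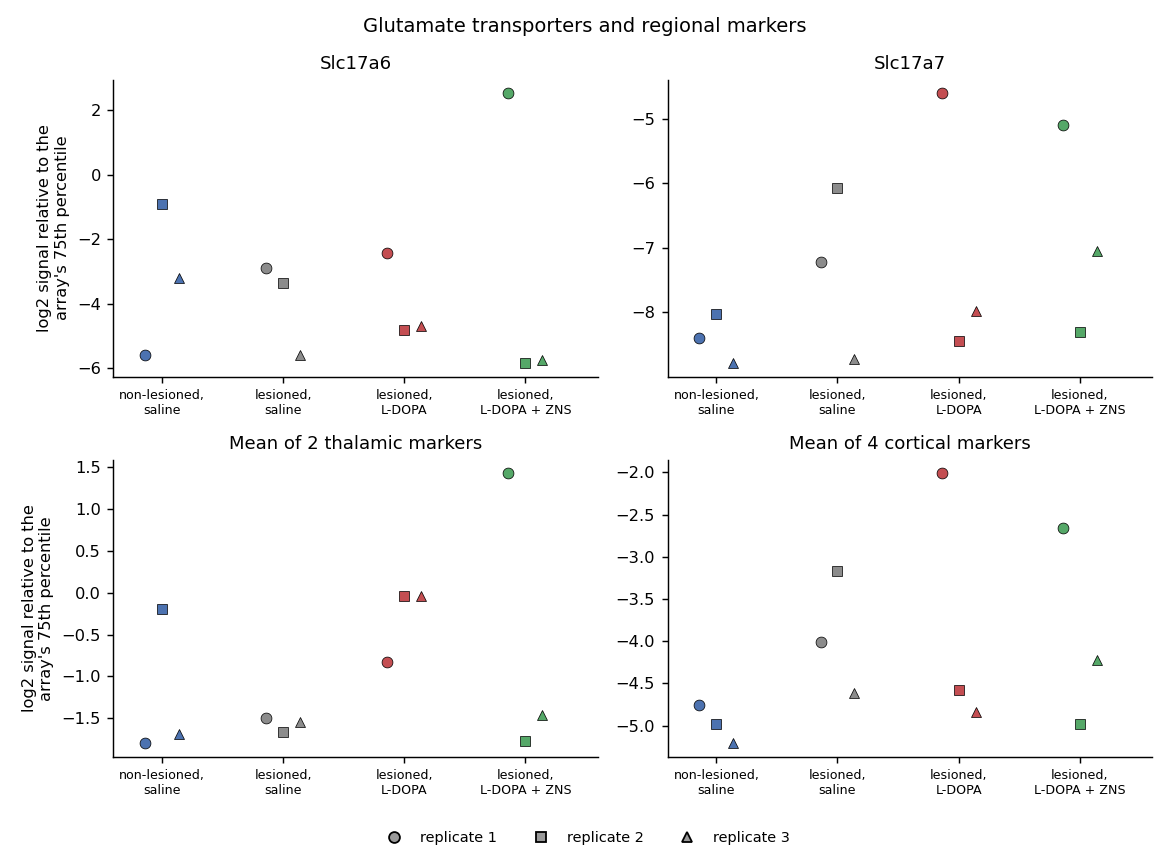
Levels of Slc17a6 and Slc17a7 (upper panels) and mean levels of 2 thalamic and 4 cortical markers (lower panels) on each array, by group and replicate (y axis: log2 signal relative to the array's 75th percentile). Replicate 1 of L-DOPA with zonisamide stands at 2.52 for Slc17a6 and 1.43 for the thalamic markers, and the 3 arrays with the highest Slc17a7 (-6.08 to -4.60) are those with the highest cortical means (-3.17 to -2.01).

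Across the 36 genes the arrays did not weigh equally. Replicate 3 of the non-lesioned side was the lowest of the 12 arrays for 8 genes, against 14.7% of all features, and its median deviation from the genes' own means was -0.31. This is also the array with the highest mean of choroid plexus markers. Replicate 1 of L-DOPA with zonisamide was the highest for 11 genes, against 7.91% of all features, with a median deviation of 0.30. The medians of the other 10 arrays lay between -0.12 and 0.23. When that non-lesioned array was left out, the median lesion change of the 36 genes was -0.15 in place of 0.0087. The spread within groups was close to that of all features, with a median SD of 0.33 against 0.34. It was lowest for Syngr1 (0.18) and Vamp1 (0.19), 0.21 for Svop, and above 0.50 for Syt7, Doc2a, Bsn (0.65) and Slc17a6.

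**Figure D4:**
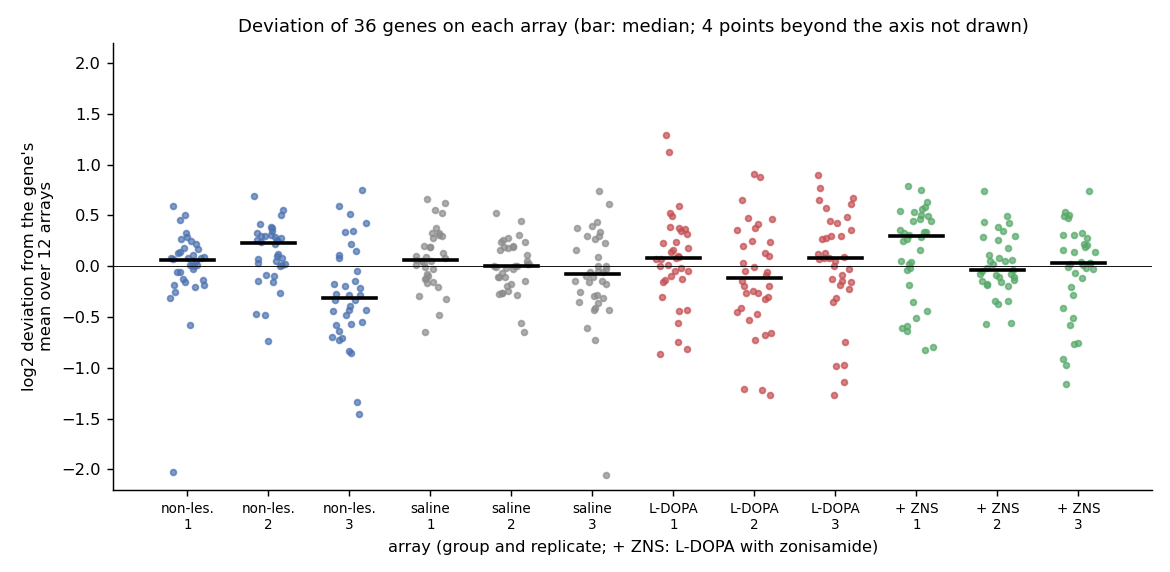
Deviation of each of 36 tested genes from its own mean over the 12 arrays (points; y axis, log2) on each array (x axis), with the median as a bar; 4 points of Slc17a6 lie beyond the axis limit of 2.2. The bar is lowest on replicate 3 of the non-lesioned side (-0.31) and highest on replicate 1 of L-DOPA with zonisamide (0.30).

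A wider list of 97 presynaptic genes, covering other synaptotagmins, Rab3 partners, SNAREs, clathrin adaptors, the vesicle proton pump and transmitter loading, had 82 genes with a probe and 80 tested. By limma 0 of the 80 passed in each of the 4 comparisons, with 4, 4, 9 and 4 at an unadjusted p under 0.05 for the lesion, L-DOPA, zonisamide and both drugs (8.48%, 11.3%, 12.4% and 7.34% of all features). Of all features 0%, 0.433%, 0.479% and 0% passed. Those nearest the threshold were Unc13d, a priming factor better known in immune cells, for the lesion (1.25 ± 0.36, adjusted p = 0.489), Syt5 for L-DOPA (0.39 ± 0.13, adjusted p = 0.270), Syt12 for zonisamide (0.92 ± 0.24, adjusted p = 0.141) and Rab3d for both drugs (0.73 ± 0.18, adjusted p = 0.590). The next were Syt10 and Cadps for the lesion (0.74 and -0.45), Rab3b and Scamp5 for L-DOPA (-0.50 and -0.54), Ppfia4 and Syt5 for zonisamide (0.64 and -0.38), and Snap47 and Cadps for both drugs (0.52 and 0.38). Slc18a2, the vesicular monoamine transporter, and Slc18a3, the vesicular acetylcholine transporter of the cholinergic interneuron, were chosen after their values were seen. With the lesion they gave 0.11 ± 0.15 (adjusted p = 0.85) and 0.20 ± 0.24 (adjusted p = 0.83), and with L-DOPA -0.04 ± 0.15 and -0.46 ± 0.24. The median changes of the 80 genes were -0.011, 0.043, 0.092 and 0.028, against 0.045, -0.027, -0.034 and -0.051 over all features.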

How the data were processed

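Total RNA of 12 striatum samples was hybridised to 1-colour (Cy3) arrays with 62976 spots, 4259 of them controls. Per the file headers, spots were extracted by the authors with version 10.7.3.1 of Agilent's Feature Extraction software. The deposited intensity is the processed signal, background-subtracted and detrended within the array per the file headers; their combined deposited sheet held the same numbers (relative tolerance 1e-06), and the raw spot brightness was used in 1 alternative only. RIN values and kits are per the labels' protocols and do not enter the numbers.

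Spots flagged as outliers were dropped, spots of a probe averaged, and each array's 75th percentile of log2 signal subtracted. Probes well above background (on at least 0.5 of spots) on all 3 arrays of a group were tested. Symbols came from RefSeq (GRCr8), which named 17328 probes and left 13039 without a symbol; the brightest tested probe stood for a gene, and 9 of the 36 genes had several. Levels of different probes were not compared.

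One limma 3.58.1 model (R 4.3.3; files read by data.table, release 1.17.8) was fitted to all 12 arrays and 4 groups (8 residual degrees of freedom), two-sided, adjusted over 19412 features. Errors of changes are moderated standard errors with 95% intervals. The script was tested on simulated data. The text names genes that pass, Svop and Tspoap1, and, for each comparison, up to 5 genes with the largest change among those without overlap, plus the 3 wider-list genes with the smallest p; other genes appear by role. The genes and lists were chosen with earlier results of these data known.

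The arrays lay on 5 slides: replicate 1 of all groups on one, replicate 2 of the lesioned groups on another, 1 non-lesioned array (replicate 2) beside replicate 3 of both drug groups on another, and 2 arrays alone. For zonisamide against L-DOPA, arrays of equal number all lay on the same slide and their deviations correlated at 0.37, 0.19 and 0.25. In the other comparisons only some arrays of equal number shared a slide. Correlations there ran from -0.18 to 0.20, and both the lowest and the highest were of arrays on a shared slide. Alternatives were quantile and normexp scaling, 2 other filters, 2 other probe rules, a robust trend, only the groups compared, replicate and slide blocks, Ttr as a covariate, and leaving out arrays. One gene of the cortical marker list is not reported here, and the list's means leave it out.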

Additional observations from a re-analysis of the deposited data

How the results depend on the processing

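In 24 alternatives for the lesion and 25 for each other comparison, 0 listed genes (Svop and Tspoap1 not counted in the drug comparisons) and 0 wider-list genes passed, apart from 1 listed gene, Syt2, for zonisamide without replicate 1 of L-DOPA (leaving out each array in turn: 0 to 1). Without that array 253 of 19412 features passed for zonisamide, against 93 in the main fit. The replicate block changed no call among the genes counted: 0 passed. Zonisamide gave 1.52 for Svop, which was not counted, and 1.08 for Syt2 (adjusted p = 0.205, limma). Over all features the counts were less stable. With the replicate block 34 passed for L-DOPA and 13 for zonisamide, against 84 and 93, and normexp gave 38 and 8. Slide as a fixed block and only the 2 groups compared each gave 0 and 0. Ttr as a covariate gave 0 and 10, and leaving out the arrays of high replicate-spot spread 1 and 1. For the lesion and for both drugs 0 of 19412 features passed in the main fit. Where few or no features passed at all, 0 listed genes could hardly come out otherwise and is no sign of stability. Where groups do not overlap, leaving out an array cannot turn the sign of a change. The wider-list genes were named for their small p on these same arrays. Kept signs are therefore a description here, not a test. Svop, Tspoap1, the genes named for their size of change without overlap and the 3 wider-list genes named per comparison kept their sign in every alternative, except Tspoap1 for both drugs against lesioned saline. Its 0.05 (-0.058 to 0.16 over the arrays left out in turn) turned to -0.81 after normexp, -0.058 without the 5 arrays whose replicate spots spread most, -0.00034 without replicate 1 of lesioned saline and -0.058 without replicate 3 of both drugs; the cause was not tested. Tspoap1 also moved to -2.08 for L-DOPA after normexp and to 0.98 for zonisamide without the high-spread arrays. The median of the listed genes moved to 0.26 for L-DOPA with Ttr as a covariate and to -0.15 for the lesion without replicate 3 of the non-lesioned side. Quantile normalization moved the median of all features from 0.045 to -0.093 for the lesion and from -0.051 to 0.070 for both drugs. Leaving out the high-spread arrays removes the whole non-lesioned group, so it gives no lesion value. Signal near background limits Slc17a7, above it on 3 of 12 arrays. The changes of the dim genes Syn3 and Unc13b kept their sign but came near 0 in some alternatives, as given above.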

Other observations

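The 6 genes with the largest excess on replicate 1 of L-DOPA with zonisamide over the highest other array, chosen after their values were seen, were Lhx9 (4.17), Shox2 (3.57), Trim16 (3.56), Slc17a6 (3.43), Ntng1 (2.77) and Calb2 (2.77), on the log2 scale. Shox2 and Lhx9 are transcription factors, Ntng1 an adhesion protein and Calb2 a calcium buffer, all known from the thalamus among other regions. Shox2 read -2.45 there and at most -6.02 elsewhere, and Lhx9 -2.90 and at most -7.07. Calb2, which striatal interneurons also make, read 1.17 there and at most -1.60 elsewhere. The next in order were Mgarp (2.64), Garin3 (2.41), P2rx2 (2.37) and Mybpc1 (2.36). These and Trim16 were not assigned to a region, and the source of the excess was not tested.

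The probes of 1 gene did not always agree. Of 9 listed genes with several tested probes, 2 had probes of opposite sign for the lesion (Rims2 and Syt4), 3 for L-DOPA (Pclo, Rims2 and Synpr), 3 for zonisamide (Pclo, Rims2 and Vamp1) and 2 for both drugs (Cplx1 and Synpr). The widest gap was in Syt4 for the lesion, -0.19 ± 0.33 and 1.23 ± 0.61 (SE).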
